A study of Mus musculus with 12 samples.

Results

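Cholesterol and fatty acid synthesis genes were followed in antigen-specific CD4+ T cells recovered from allergen-sensitized mice. The set comprised 36 genes of the 40840 gene symbols in the count tables, chosen by name: 18 enzymes of the sterol pathway, 6 genes that regulate sterol synthesis through the sterol regulatory element-binding proteins (SREBPs) or carry sterol between membranes, 4 genes of the liver X receptors (LXRs) and of cholesterol efflux, and 8 fatty acid enzymes. All 36 were among the 13570 genes that passed the filter on low counts.

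The cells were OTII cells, transgenic CD4+ T cells whose T cell receptor recognizes a peptide of ovalbumin (OVA). They were transferred into C57BL/6 J recipients (WT) or into recipients carrying the B6.129S2-IL-6tm1Kopf/J deletion (Il6-/-), so the OTII cells of all 4 groups came from the same kind of donor and only the host lacked IL-6. Every recipient was sensitized intranasally with LPS-free OVA and an endotoxin-containing house dust mite extract (HDMLPS), and OTII cells were sorted on Day 3 or Day 5. Each of the 4 groups (WT Day 3, Il6-/- Day 3, WT Day 5, Il6-/- Day 5) had 3 libraries. The labels name blood as the tissue, whereas the series' design text and the study's methods describe mediastinal lymph nodes. The age of the mice and whether a library held 1 animal or a pool are not given in the sources used here, so p-values measure the spread between these libraries.

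Cells obtain cholesterol by synthesis from acetyl-CoA through the mevalonate pathway or by taking up lipoproteins. When membrane sterol is low, SCAP escorts the SREBPs from the endoplasmic reticulum to the Golgi, where they are cut and released to turn on synthesis and uptake genes; INSIG proteins hold SCAP back when sterol is plentiful. Oxidized sterols activate the LXRs, which turn on the cholesterol exporters Abca1 and Abcg1, and T cells are known to raise sterol and fatty acid synthesis when they are activated and divide.

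Between 16125947 and 26111657 reads per library were assigned to genes. The share of reads assigned was 60.2% to 62.2% on Day 3 and 52.5% to 56.7% on Day 5. The summed level of 5 CD4+ T cell markers was 4849 to 6261 CPM (read counts scaled to library size) on Day 3 and 8330 to 9743 CPM on Day 5. The summed levels of the other lists were at most 10.7 CPM for 6 B cell genes, 50.3 CPM for 9 myeloid and dendritic cell genes and 19.95 CPM for 4 lung epithelium genes. Cd8b1 was at 56.3 to 84.2 CPM, whereas Cd8a did not exceed 1.7 CPM in any library.

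The regulatory sequence that SREBPs read is shown here for the member that held it, beside the members with the largest fall among the sterol enzymes and the largest rise. RefSeq promoter windows (GRCm38.p6, reference sequence) were found for 28 of the 36 members, in 37 windows. The sterol element core TCACNCCAC was searched on both strands of the bases before each transcription start, and it occurred in 1 member window, that of Hmgcs1, and in 1.05% of all 32851 windows. The CCAAT box, to which NF-Y binds beside many sterol elements, occurred in 20 of the 37 member windows (54.1%) and in 33.9% of all windows. The E-box CACGTG occurred in 6 member windows (16.2%) and in 6.02% of all windows. Each sequence below is the 160 bases before a start site on the gene's own strand, with matches to these motifs in capitals, and the windows of Idi1 and Abca1 were chosen after their values were seen.
Hmgcs1, chr13:119690191-119690350, plus strand, with the sterol element core 137 bases before the start: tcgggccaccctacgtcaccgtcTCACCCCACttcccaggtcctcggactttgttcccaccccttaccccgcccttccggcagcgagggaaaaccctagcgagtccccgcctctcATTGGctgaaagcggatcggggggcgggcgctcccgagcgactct
Idi1, chr13:8885446-8885605, plus strand, with CCAAT boxes on the reverse strand: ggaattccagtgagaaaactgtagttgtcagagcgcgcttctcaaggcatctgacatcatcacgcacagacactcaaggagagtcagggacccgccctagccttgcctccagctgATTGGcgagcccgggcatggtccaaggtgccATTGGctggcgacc
Abca1, chr4:53159896-53160055, minus strand, with an E-box: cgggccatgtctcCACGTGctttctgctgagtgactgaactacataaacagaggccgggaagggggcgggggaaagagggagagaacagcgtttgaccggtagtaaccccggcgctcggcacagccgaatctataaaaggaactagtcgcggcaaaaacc
A match is a run of letters and no measurement of binding, and a window without a match shows only that these letters were not in it.

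Sterol synthesis transcripts fell from Day 3 to Day 5 in both kinds of recipient. In WT recipients, 17 of the 18 sterol enzymes fell (false discovery rate, FDR, under 0.05; edgeR quasi-likelihood test over all genes, Benjamini-Hochberg adjustment), 12 of them at least 2-fold, and none rose. In Il6-/- recipients, 16 fell, 8 of them at least 2-fold, and 1 rose. The median log2 fold change (log2FC) over the 18 enzymes was -1.27 in WT and -0.91 in Il6-/- recipients, beside 0.091 and 0.087 over all genes tested. Of all genes tested, 27.1% fell in WT and 30.1% in Il6-/- recipients, and 9.39% and 11.4% fell at least 2-fold.

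Summed over the 18 enzymes, the level was 1569, 1513 and 1610 CPM in the WT libraries of Day 3 and 555, 665 and 683 CPM in those of Day 5. In Il6-/- recipients it was 1439.7, 1562 and 1624 CPM on Day 3 and 632, 922 and 774 CPM on Day 5. Every Day 5 library therefore lay below every Day 3 library. In bulk libraries, fewer cells that make a transcript and less transcript per cell cannot be told apart. Genes of cell division moved the same way: the summed level of 8 proliferation genes, among them Mki67 and Pcna, was 4791 to 5355 CPM on Day 3 and 521 to 1462 CPM on Day 5, and all 8 fell in both genotypes. The part of cell division, and of the lower share of assigned reads on Day 5, in the fall of the sterol genes was not tested.

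The first steps from acetyl-CoA towards the isoprenoid units, those of Acat2 and Hmgcs1, fell between 2.56-fold and 3.36-fold. Acat2, which condenses acetyl-CoA for this pathway, was at 72.6, 68.3 and 66.9 CPM in WT on Day 3 and at 20.005, 23.9 and 21.5 CPM on Day 5. Acat2 in Il6-/- recipients was at 75.3, 75.6 and 73.4 CPM on Day 3 and at 21.6, 35.2 and 30.9 CPM on Day 5, and the days did not overlap in either genotype. Its log2FC was -1.67 ± 0.14 (SE) in WT and -1.35 ± 0.14 in Il6-/- recipients, with FDRs of 1.3e-07 and 6.4e-07. Hmgcs1, which makes HMG-CoA and holds the sterol element shown above, was at 137, 129.8 and 139 CPM in WT on Day 3 and at 33.4, 49.5 and 37.9 CPM on Day 5. Hmgcs1 in Il6-/- recipients was at 121, 132 and 136 CPM and then at 33.3, 65.5 and 48.7 CPM. Its log2FC was -1.75 ± 0.18 in WT and -1.40 ± 0.18 in Il6-/- recipients, with FDRs of 1.3e-06 and 8.7e-06.

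Of the mevalonate kinases and the decarboxylase, Pmvk was at 64.1, 61.5 and 69.3 CPM in WT on Day 3 and at 24.2, 32.8 and 33.0 CPM on Day 5. Pmvk in Il6-/- recipients was at 64.2, 72.7 and 66.9 CPM and then at 32.7, 40.2 and 42.9 CPM. Mvd, the decarboxylase, was lower in level, at 17.9, 17.4 and 20.03 CPM in WT on Day 3 and at 8.04, 8.47 and 9.87 CPM on Day 5. Both genes had days that did not overlap. Mvd in Il6-/- recipients was at 15.8, 16.9 and 19.3 CPM and then at 7.83, 12.8 and 9.21 CPM. Mvd shares 20.5% of its annotated exonic bases with Gm51557. The log2FC of Pmvk was -1.11 in WT and -0.82 in Il6-/- recipients and that of Mvd was -1.07 and -0.81 (FDR at most 0.00085). Mvk, the kinase that acts before Pmvk, moved less: its log2FC of -0.51 ± 0.15 passed in WT (FDR 0.01), whereas the -0.21 ± 0.15 in Il6-/- recipients did not (FDR 0.24). Without WT Day 5 replicate 1 its WT value was -0.41 (FDR 0.051).

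Idi1, the isomerase that makes the reactive isoprenoid unit (chr13:8935537-8942487 in GRCm39, plus strand), fell furthest among the sterol enzymes. It was at 42.2, 31.3 and 37.1 CPM in WT on Day 3 and at 3.00, 6.08 and 4.61 CPM on Day 5. Idi1 in Il6-/- recipients was at 39.1, 43.3 and 47.2 CPM on Day 3 and at 4.87, 13.4 and 8.74 CPM on Day 5. The lowest Day 3 library thus exceeded the highest Day 5 library in both genotypes, and the fitted fall was 8.08-fold in WT and 4.81-fold in Il6-/- recipients (FDR 5e-07 and 3.9e-06). Fdps, which joins isoprenoid units into farnesyl diphosphate, was at 240.0, 210.4 and 253 CPM and then at 51.6, 63.4 and 61.97 CPM in WT. Fdps in Il6-/- recipients was at 206, 238 and 258 CPM and then at 52.7, 96.3 and 81.9 CPM, with log2FC of -1.99 in WT and -1.60 in Il6-/- recipients.

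Squalene is made by Fdft1 and oxidized by Sqle, a step that limits the flux to sterols. Fdft1 was at 104, 96.9 and 94.5 CPM in WT on Day 3 and at 30.6, 41.8 and 41.8 CPM on Day 5. Fdft1 in Il6-/- recipients was at 77.7, 83.6 and 93.6 CPM and then at 37.1, 49.6 and 40.9 CPM. Sqle was tight between libraries on Day 3, at 102, 104 and 102 CPM in WT, and stood at 22.1, 26.3 and 27.0 CPM on Day 5. Sqle in Il6-/- recipients was at 91.5, 96.5 and 98.2 CPM and then at 24.2, 43.7 and 30.9 CPM. The log2FC of Fdft1 was -1.37 ± 0.13 in WT and -0.9996 ± 0.13 in Il6-/- recipients. That of Sqle was -2.03 ± 0.16 (FDR 7.5e-08) and -1.54 ± 0.15 (FDR 6e-07). Fdft1 shares 24.8% of its annotated exonic bases with other genes (Ctsb), and reads were counted without regard to strand, so its level is less certain.

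Lss closes the sterol ring, and Cyp51 and Msmo1 remove its extra methyl groups. Lss was at 57.8, 53.9 and 62.8 CPM in WT on Day 3 and at 10.3, 13.0 and 11.8 CPM on Day 5. Lss in Il6-/- recipients was at 61.1, 62.4 and 63.1 CPM on Day 3, and on Day 5 its 3 libraries spread over 11.3, 30.8 and 17.4 CPM. Replicate 2 held the highest value, and still lay below every Day 3 library (log2FC -2.31 ± 0.24 in WT and -1.66 ± 0.23 in Il6-/- recipients). Cyp51 was at 197, 186 and 188 CPM and then at 34.5, 55.5 and 53.7 CPM in WT. Cyp51 in Il6-/- recipients was at 175, 181 and 189 CPM and then at 49.2, 93.6 and 69.5 CPM, a fall by 1.99 in WT and by 1.36 in Il6-/- recipients on the log2 scale. Cyp51 shares 21.1% of its exonic bases with Akap9. Msmo1 was at 125, 121 and 137 CPM and then at 42.1, 61.9 and 65.2 CPM in WT. Msmo1 in Il6-/- recipients was at 103, 115 and 124 CPM and then at 53.7, 82.1 and 71.6 CPM, with log2FC of -1.18 in WT and -0.72 in Il6-/- recipients.

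Among the enzymes that finish the sterol, the changes were smaller apart from that of Hsd17b7. Hsd17b7, a keto-reductase, was at 17.9, 15.6 and 17.3 CPM in WT on Day 3 and at 4.17, 6.13 and 6.44 CPM on Day 5. Hsd17b7 in Il6-/- recipients was at 18.3, 16.3 and 19.1 CPM and then at 7.25, 5.98 and 6.87 CPM (log2FC -1.60 in WT and -1.42 in Il6-/- recipients). The desaturase Sc5d and the reductase Dhcr7 fell by 0.98 and 0.73 on the log2 scale in WT, and by 0.72 and 0.47 in Il6-/- recipients. Ebp and Nsdhl changed least among those that fell, with log2FC of -0.36 and -0.32 in WT and -0.28 and -0.38 in Il6-/- recipients. Tm7sf2, a sterol reductase, was the exception: it rose in Il6-/- recipients (log2FC 0.46, FDR 0.0065) and had a log2FC of 0.30 in WT (FDR 0.06; 0.045 without WT Day 5 replicate 2 and 0.049 without Il6-/- Day 5 replicate 1). The fall of Nsdhl in WT was not called without WT Day 3 replicate 3 or WT Day 5 replicates 1 or 2 (log2FC -0.27, -0.34 and -0.25). In Il6-/- recipients it was not called without Day 3 replicate 3 or Day 5 replicate 1 (-0.26 and -0.31).

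**Figure D1:**
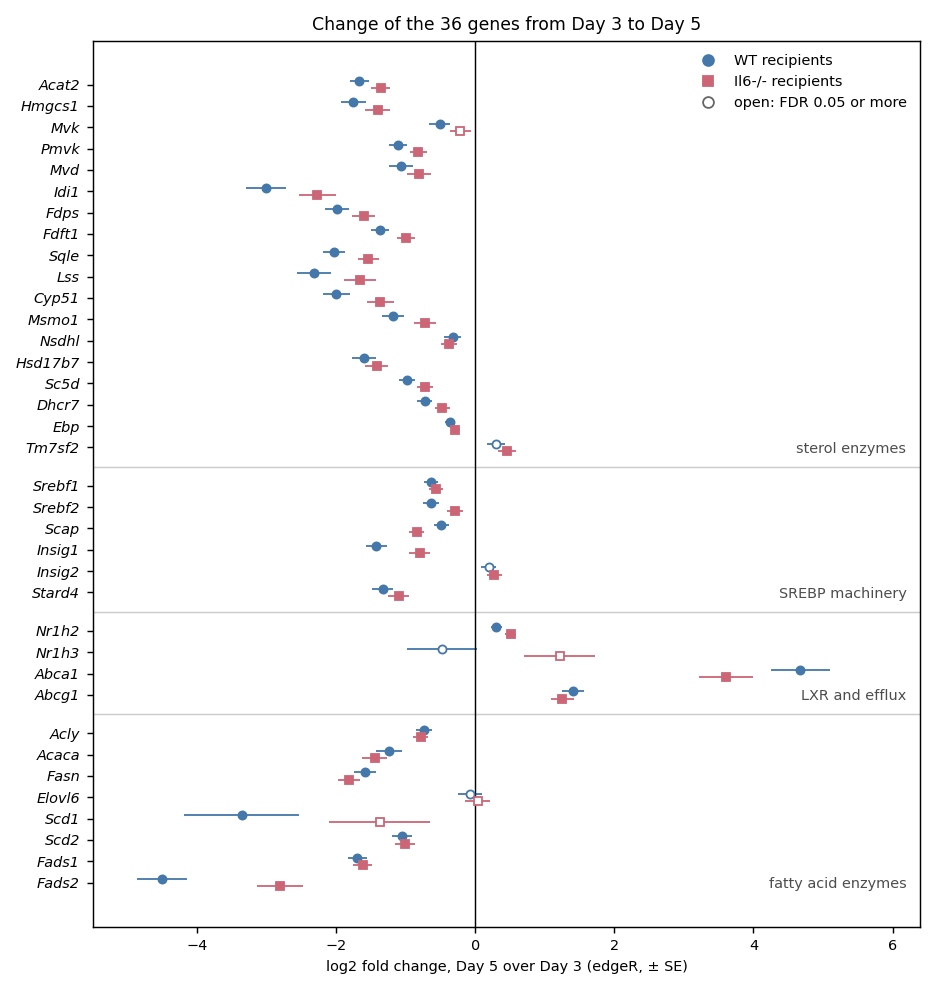
Log2 fold change from Day 3 to Day 5 for each of the 36 genes (horizontal axis; bars, SE of the edgeR estimate) in WT recipients (blue circles) and Il6-/- recipients (red squares); filled symbols had FDR under 0.05. Most sterol and fatty acid enzymes lie left of 0, where their filled symbols run from -0.28 for Ebp in Il6-/- recipients to -4.50 for Fads2 in WT, while Abca1 and Abcg1 lie to the right.

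Compared per length of the canonical transcript, the order of the genes changed between the days. On Day 3 Fdps was highest, at 179 ± 16.6 CPM per kb (SD, n = 3) in WT and 179 ± 20.2 CPM per kb in Il6-/- recipients. Scd2 followed, at 89.9 ± 13.1 and 127 ± 15.0 CPM per kb, and in WT it did not stand apart from Srebf2 (83.1 ± 3.36) and Acly (81.9 ± 3.11 CPM per kb) beyond its spread. On Day 5 Ebp had the highest mean in both genotypes, at 58.5 ± 1.88 CPM per kb in WT and 64.7 ± 2.08 CPM per kb in Il6-/- recipients. Srebf2 lay within its spread of Ebp in both (53.7 ± 6.43 in WT and 57.1 ± 11.05 CPM per kb in Il6-/- recipients). In Il6-/- recipients Scd2 (62.8 ± 14.7) and Fdps (58.9 ± 17.0 CPM per kb) lay within their spread of it as well. Fdps then stood at 45.2 ± 4.93 CPM per kb in WT, within the spread of Acly (49.1 ± 4.71) and Scd2 (43.6 ± 3.01 CPM per kb). Scd1 was lowest on Day 5, at 0.0202 ± 0.0105 CPM per kb in WT and 0.0611 ± 0.0309 CPM per kb in Il6-/- recipients.

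Most regulators of sterol synthesis fell as well, as did the sterol carrier Stard4, which is counted with them here. Of the 6 genes, 5 fell in each genotype, where 27.1% of all genes tested fell in WT and 30.1% in Il6-/- recipients. The median log2FC was -0.63 in WT and -0.68 in Il6-/- recipients, beside 0.091 and 0.087 over all genes tested. Srebf1 and Srebf2, which encode the SREBPs, had log2FC of -0.63 and -0.63 in WT and of -0.57 and -0.29 in Il6-/- recipients (FDR at most 0.042). Scap fell by 0.49 in WT and by 0.84 in Il6-/- recipients on the log2 scale. Insig1, which is both a brake on SCAP and an SREBP target, was at 98.0, 91.1 and 86.7 CPM in WT on Day 3 and at 26.9, 32.1 and 43.8 CPM on Day 5. Insig1 in Il6-/- recipients was at 80.5, 84.8 and 81.5 CPM and then at 40.8, 56.8 and 44.5 CPM, so that the fall was 2.68-fold in WT and 1.74-fold in Il6-/- recipients (FDR 1.4e-06 and 0.00028). Its paralog Insig2 did not follow: WT recipients gave a log2FC of 0.19 (FDR 0.14), whereas in Il6-/- recipients it rose by 0.27 (FDR 0.041). The Il6-/- calls of Srebf2 and Insig2 were weak. That of Srebf2 was lost without Il6-/- Day 3 replicates 1, 2 or 3, Il6-/- Day 5 replicates 1 or 3, or WT Day 3 replicate 2 (log2FC -0.30, -0.30, -0.29, -0.17, -0.27 and -0.29). That of Insig2 was lost without the same Il6-/- libraries or WT Day 3 replicate 1 (0.26, 0.25, 0.30, 0.29, 0.23 and 0.27). Stard4, a carrier of sterol between membranes, was at 92.8, 87.1 and 94.5 CPM and then at 35.5, 40.4 and 33.2 CPM in WT. Stard4 in Il6-/- recipients was at 89.2, 91.0 and 100.2 CPM and then at 30.8, 46.1 and 53.8 CPM, with log2FC of -1.33 in WT and -1.10 in Il6-/- recipients.

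The efflux genes moved the other way. Abca1 (chr4:53030787-53159900 in GRCm39, minus strand) exports cholesterol to apolipoproteins. In WT it was at 0.585, 0.939 and 0.651 CPM on Day 3, or 12 to 19 reads per library, and at 27.4, 14.7 and 13.5 CPM on Day 5. Abca1 in Il6-/- recipients was at 2.11, 0.902 and 1.28 CPM on Day 3 and at 26.8, 12.5 and 13.1 CPM on Day 5. On Day 5, replicate 1 of both genotypes held the highest value, and every Day 5 library exceeded every Day 3 library. The log2FC reached 4.68 ± 0.42 in WT and 3.61 ± 0.39 in Il6-/- recipients, with FDRs of 3.1e-07 and 1.4e-06. Abcg1, the exporter to high-density lipoprotein, was at 77.2, 77.9 and 60.1 CPM and then at 205, 175 and 191 CPM in WT. Abcg1 in Il6-/- recipients was at 91.3, 64.9 and 97.4 CPM and then at 251, 174 and 179.8 CPM, a rise of 2.65-fold in WT and 2.38-fold in Il6-/- recipients. Of all genes tested, 29.5% rose in WT and 30.4% in Il6-/- recipients, and 12.7% and 14.5% rose at least 2-fold. Abca1 is also made by macrophages: the summed level of the 9 myeloid and dendritic cell genes was 14.0 to 27.7 CPM on Day 3 and 19.0 to 50.3 CPM on Day 5, and its part in the rise of Abca1 was not tested. The study's methods describe a sort of OTII cells after staining for CD4, CD44, B220 and the donor form of CD45. The LXR subunit Nr1h2 rose less, by a log2FC of 0.30 in WT and 0.51 in Il6-/- recipients (FDR 0.0042 and 4.7e-05). Nr1h3, the other LXR, had 5 to 22 reads per library and passed no test (log2FC -0.48 in WT and 1.22 in Il6-/- recipients, FDR 0.43 and 0.052; 1.499 with FDR 0.032 in Il6-/- recipients without Day 5 replicate 2).

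**Figure D2:**
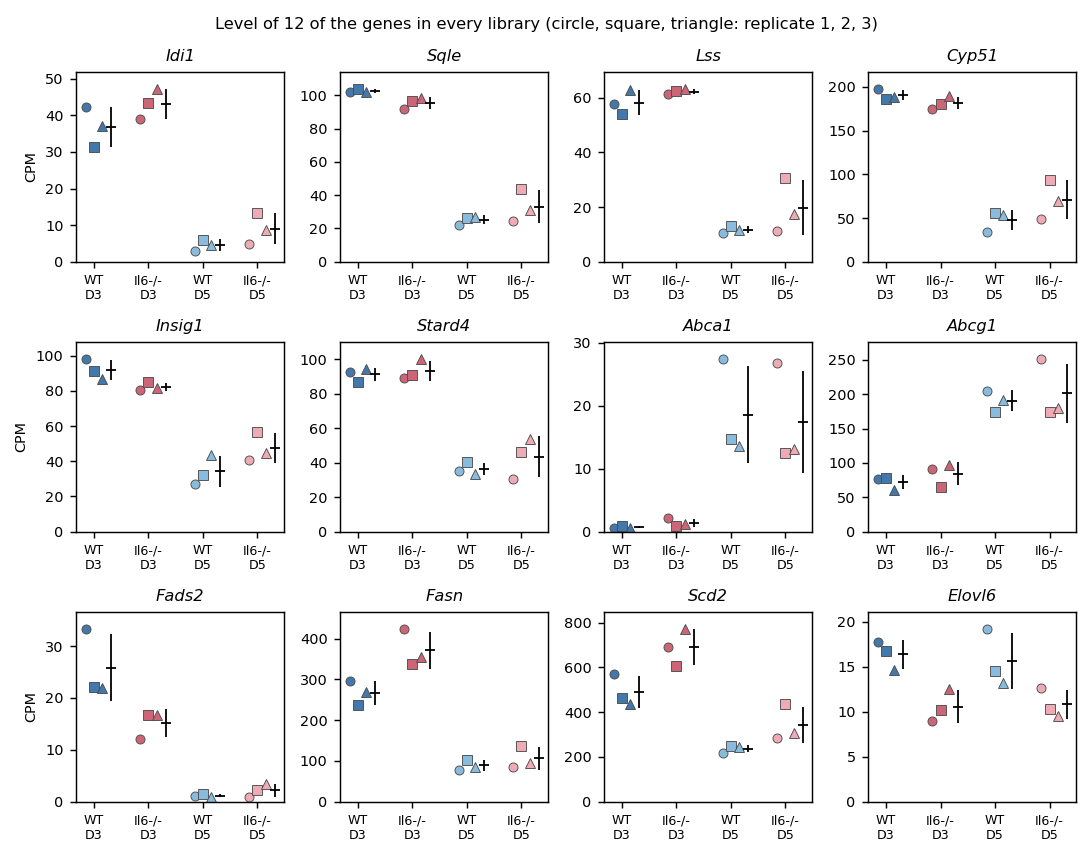
Level in CPM (vertical axis, from 0) of 12 of the genes in each of the 12 libraries, by genotype and day (D3, Day 3; D5, Day 5); black marks are the mean ± SD of 3 libraries. Sterol genes of Day 5 lie below those of Day 3, Abca1 and Abcg1 above, and the Il6-/- Day 5 library of replicate 2 is the highest of its group for Idi1, Sqle, Lss, Cyp51 and Insig1.

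Fatty acid synthesis and desaturation transcripts fell too. Of the 8 enzymes, 7 fell in WT and 6 in Il6-/- recipients, where 27.1% and 30.1% of all genes tested fell. The median log2FC over the 8 was -1.41 in both. Acly, which supplies cytosolic acetyl-CoA, fell by 0.74 in WT and by 0.78 in Il6-/- recipients on the log2 scale. Acaca, the acetyl-CoA carboxylase that commits carbon to fatty acids, was at 30.7, 21.4 and 28.8 CPM in WT on Day 3 and at 12.2, 11.8 and 10.3 CPM on Day 5. Acaca in Il6-/- recipients was at 42.6, 33.0 and 33.7 CPM and then at 10.3, 17.6 and 12.3 CPM. Fasn, the fatty acid synthase, was at 296, 237 and 269 CPM in WT and then at 78.3, 103 and 85.6 CPM. Fasn in Il6-/- recipients was at 423, 337 and 354 CPM on Day 3, above all 3 WT libraries, and at 86.3, 138 and 94.3 CPM on Day 5. The log2FC of Acaca was -1.24 in WT and -1.45 in Il6-/- recipients, and that of Fasn was -1.59 and -1.81.

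The desaturases included the largest fall of the set. Fads2, which starts the desaturation of polyunsaturated fatty acids (chr19:10038130-10079203 in GRCm39, minus strand), was at 33.3, 22.2 and 22.0 CPM in WT on Day 3 and at 1.02, 1.45 and 0.94 CPM on Day 5. Fads2 in Il6-/- recipients was at 12.1, 16.7 and 16.8 CPM on Day 3 and at 0.847, 2.29 and 3.38 CPM on Day 5. The fall was 22.7-fold in WT (log2FC -4.50 ± 0.36, FDR 9.8e-08) and 6.98-fold in Il6-/- recipients (log2FC -2.80 ± 0.33, FDR 3.4e-06). Its neighbour Fads1, which acts after it, was at 50.6, 42.9 and 41.6 CPM and then at 13.8, 14.6 and 13.4 CPM in WT. Fads1 in Il6-/- recipients was at 41.7, 48.0 and 46.4 CPM and then at 11.8, 15.1 and 17.4 CPM, with log2FC of -1.69 in WT and -1.62 in Il6-/- recipients. Scd1, a desaturase of saturated fatty acids, was near the limit of detection, with 9 to 31 reads per WT library on Day 3 and 1 to 3 on Day 5. Scaled for depth, the WT libraries held 10.4 times as many Scd1 reads on Day 3 as on Day 5 (95% exact binomial interval 4.54 to 29.3, counting error only; edgeR FDR 0.0029). In Il6-/- recipients that ratio was 2.38 (interval 1.35 to 4.42; edgeR FDR 0.12, and 0.031 without Day 3 replicate 1). Elovl6, which elongates palmitate, was not called between the days, with a log2FC of -0.07 ± 0.17 in WT and 0.03 ± 0.18 in Il6-/- recipients (FDR 0.75 and 0.88).

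Recipient genotype was compared within each day to ask whether these transcripts depended on IL-6 in the host. On Day 3, no sterol enzyme, regulator or efflux gene passed the test, and 1 fatty acid enzyme was higher and 1 lower in OTII cells from Il6-/- recipients. Of all genes tested, 7.52% were higher and 6.19% lower. The median log2FC over the 18 sterol enzymes was -0.036, with values from -0.21 for Fdft1 to 0.25 for Nsdhl, beside 0.015 over all genes tested. The summed fatty acid enzymes were at 1370.2, 1149 and 1183 CPM in WT and at 1600.3, 1435 and 1640.4 CPM in Il6-/- recipients, and the groups did not overlap. Such a sum mostly follows its most abundant genes. Gene by gene, the 8 fatty acid enzymes had a median log2FC of 0.056, with 5 positive and 3 negative values.

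Scd2, the paralog of Scd1 and likewise a desaturase of saturated fatty acids (chr19:44281613-44295303 in GRCm39, plus strand), was called on both days. On Day 3 it was at 571, 463 and 436 CPM in WT and at 693, 608 and 771 CPM in Il6-/- recipients. On Day 5 it was at 219, 250.1 and 244 CPM in WT and at 286, 435 and 307 CPM in Il6-/- recipients. The Il6-/- libraries exceeded all WT libraries of the same day, by 0.49 ± 0.14 (FDR 0.031) on the log2 scale on Day 3 and by 0.53 ± 0.14 (FDR 0.048) on Day 5. From Day 3 to Day 5 Scd2 fell 2.06-fold in WT and 2.02-fold in Il6-/- recipients, and the 2 genotype effects differed by -0.03 ± 0.20 on the log2 scale (FDR 0.95). Neither call was firm. The Day 3 call was lost without WT Day 3 replicates 2 or 3 or Il6-/- Day 3 replicates 1 or 3 (log2FC 0.46, 0.42, 0.49 and 0.41). The Day 5 call was lost without any library other than WT Day 3 replicate 1 and Il6-/- Day 5 replicate 1 (log2FC from 0.35 without Il6-/- Day 5 replicate 2 to 0.60 without Il6-/- Day 5 replicate 3). Over many genes, deviations of same-numbered libraries correlated weakly on Day 3 (r 0.107 to 0.141) and more on Day 5 (r 0.193 to 0.536). With the replicate number as a block in the edgeR fit, the FDRs of Scd2 were 0.0033 and 0.0055. What the number marks is not given, and on Day 3 replicate 3 of Scd2 was lowest in WT and highest in Il6-/- recipients.

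Elovl6 (chr3:129326004-129432144 in GRCm39, plus strand) went the opposite way to Scd2. On Day 3 it was at 17.8, 16.8 and 14.6 CPM in WT and at 8.92, 10.2 and 12.6 CPM in Il6-/- recipients (log2FC -0.63 ± 0.18, FDR 0.027). On Day 5 it was at 19.2, 14.5 and 13.2 CPM in WT and at 12.6, 10.3 and 9.53 CPM in Il6-/- recipients (log2FC -0.53 ± 0.18, FDR 0.1). On both days all 3 Il6-/- libraries lay below all 3 WT libraries. The Day 3 call of Elovl6 was lost without WT Day 3 replicates 1 or 2 or Il6-/- Day 3 replicates 1 or 2 (log2FC -0.57, -0.62, -0.53 and -0.61). Fasn and Fads2 came near the threshold on Day 3, with log2FC of 0.47 ± 0.15 (FDR 0.054) and -0.77 ± 0.28 (FDR 0.087). Fasn passed without WT Day 5 replicate 2 or Il6-/- Day 5 replicates 1 or 2, Fads2 without Il6-/- Day 5 replicate 1 and Srebf2 without Il6-/- Day 5 replicate 2 (FDR 0.049, 0.031, 0.015, 0.018 and 0.048). With the replicate number as a block, 4 members were higher (Abca1, Acaca, Fasn and Scd2) and 3 lower (Elovl6, Fads2 and Srebf2) on Day 3, where 10.9% of all genes were higher and 8.7% lower.

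On Day 5 the sterol enzymes leaned towards Il6-/- recipients without passing the test gene by gene. Of the 18 enzymes, 17 had a positive log2FC, as had 7011 of all 13570 genes tested. The median over the 18 was 0.28 (0.011 over all genes tested), with a range from -0.013 for Tm7sf2 to 0.97 for Idi1. Of all 36 members, Scd2 alone was called higher and none lower, where 1.27% of all genes were higher and 3.35% lower. An unadjusted p under 0.05 was reached by 12 of the 36 members and by 19.8% of all genes. The smallest FDRs among the sterol enzymes were those of Idi1 (log2FC 0.97 ± 0.30, FDR 0.075), Lss (0.75 ± 0.24, FDR 0.094) and Acat2 (0.42 ± 0.14, FDR 0.097). Insig1 had a log2FC of 0.47 ± 0.15 (FDR 0.094). The WT and Il6-/- values of Idi1, Lss, Acat2 and Insig1 given above overlapped on Day 5.

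With the replicate number as a block, 11 members were higher on Day 5 and 1 was lower, where 5.43% of all genes were higher and 6.3% lower. Those higher were the sterol enzymes Acat2, Cyp51, Fdps, Idi1, Lss, Msmo1, Pmvk and Sqle, the regulator Insig1 and the fatty acid enzymes Fasn and Scd2; Elovl6 was lower. Blocked log2FC among them ran from 0.23 for Fasn to 0.95 for Idi1 (FDR from 0.00082 for Cyp51 to 0.047 for Fasn and Sqle). DESeq2, without a block, called Acat2, Cyp51, Insig1 and Scd2 higher, where 3.95% of all genes were higher. Compared number by number, 11 of the 18 sterol enzymes were higher in the Il6-/- library in all 3 pairs and none was lower in all 3, where 22% of all genes were higher and 21.1% lower in all 3. The summed sterol enzymes were 1.14, 1.39 and 1.13 times as high in the Il6-/- library as in the WT library of the same number.

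The counts of Day 5 varied with single libraries. In Il6-/- Day 5 replicate 2, 15 of the 18 sterol enzymes were at their highest within the group, and in replicate 1, 16 were at their lowest. Without replicate 2 no member was called on Day 5, where 0.393% of all genes were higher, and the median log2FC of the sterol enzymes was 0.17. Without replicate 1, 12 members were called higher, where 4.18% of all genes were higher, and the median was 0.38. Without WT Day 5 replicate 3, Insig1 and Dhcr7 were called higher (log2FC 0.68 and 0.36), where 2.02% of all genes were higher. Proliferation genes were ordered the same way, with all 8 highest in replicate 2 and lowest in replicate 1. They were also higher in the Il6-/- library of all 3 pairs, with summed levels 1.35, 1.81 and 1.38 times those of WT, although none of the 8 was called (FDR at least 0.056). Their part in the sterol values was not tested.

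**Figure D3:**
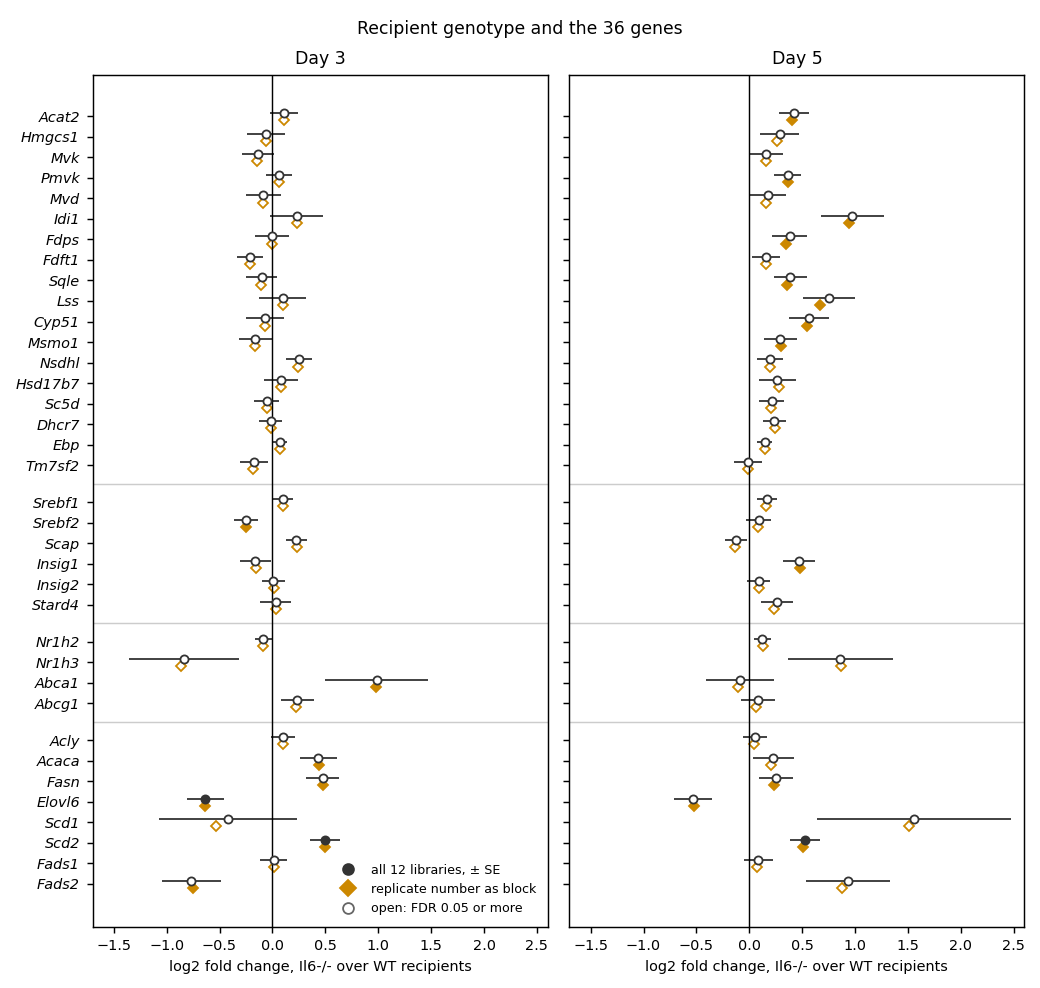
Log2 fold change of Il6-/- over WT recipients for the 36 genes on Day 3 (left) and Day 5 (right); circles are estimates from all 12 libraries with SE bars, diamonds the estimates with the replicate number as a block, and filled symbols had FDR under 0.05. Circles are filled for Scd2 on both days and for Elovl6 on Day 3, and filled diamonds gather among the sterol enzymes right of 0 on Day 5.

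Whether the genotype effect differed between the days was tested directly. The difference was taken as Day 3 minus Day 5, so that for a gene that fell in both genotypes a negative value means a smaller fall in Il6-/- recipients. It was negative for 17 of the 18 sterol enzymes and for 6852 of all 13570 genes tested (median log2 difference -0.31 and -0.0045). It was also negative for all 8 proliferation genes (median -0.61), none of which was called (FDR at least 0.17). Their part in the sterol values was not tested. No member passed the edgeR test, where 3.12% of all genes were higher and 1.8% lower. An unadjusted p under 0.05 was reached by 6 of the 36 members and by 20.5% of all genes. DESeq2 called Fads2 and Insig1 lower, where 4.17% of all genes were lower. Without WT Day 5 replicate 3, edgeR called 1 member lower (1.95% of all genes), and without Il6-/- Day 5 replicate 1 it called 5 (2.55% of all genes). The lowest FDRs in edgeR were those of Fads2 (-1.702 ± 0.49, FDR 0.058) and Insig1 (-0.63 ± 0.21, FDR 0.1). With the replicate number as a block, 6 members were lower, namely Cyp51, Fads2, Idi1, Insig1, Msmo1 and Srebf2, where 5.28% of all genes were lower and 6.24% higher.

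**Figure D4:**
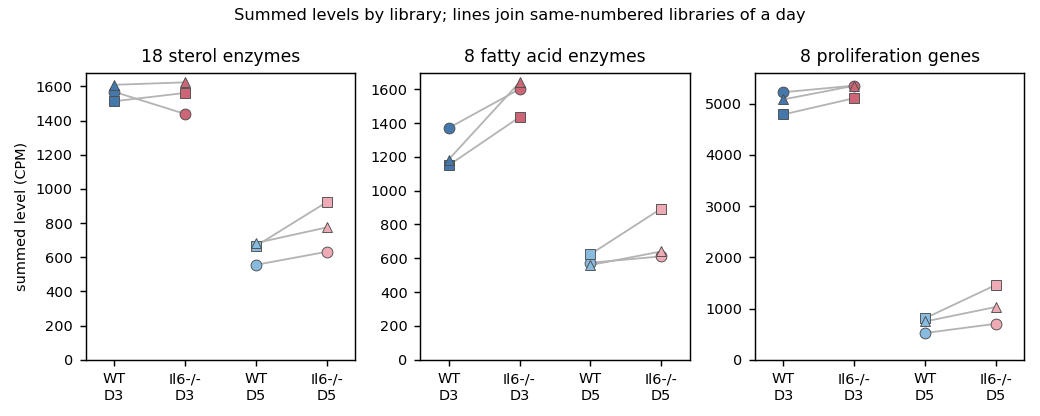
Summed level in CPM (vertical axes, from 0) of the 18 sterol enzymes, the 8 fatty acid enzymes and 8 proliferation genes in every library; grey lines join libraries of the same number within a day. All 3 sums drop from Day 3 to Day 5, and on Day 5 each line rises from WT to Il6-/-.

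A list of 42 other genes of sterol and fatty acid metabolism, of which 40 were tested, was examined beside the set. From Day 3 to Day 5, 9 rose and 18 fell in WT, and 8 rose and 19 fell in Il6-/- recipients, with a median log2FC of -0.15 and -0.30. Over all genes tested, as given above, 29.5% rose and 27.1% fell in WT, and 30.4% and 30.1% in Il6-/- recipients. Falls in both genotypes included those of Fabp5, a fatty acid carrier (log2FC -2.44 in WT and -2.23 in Il6-/- recipients), Tmem97, a regulator of cholesterol transport (-2.31 and -2.47), and Acsl5, a fatty acid activating enzyme (-1.02 and -0.92). The rises were led by Mylip, a ubiquitin ligase and LXR target, with log2FC of 1.58 in WT and 2.19 in Il6-/- recipients, by Lpin1, a phosphatidate phosphatase (0.93 and 1.32), and by Npc2, a lysosomal cholesterol carrier (0.75 and 0.84). Tmem97 shares 18.6% and Acsl5 37.3% of their exonic bases with other genes.

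Between genotypes, 2 of the 40 were higher and 3 lower on Day 3, and 1 was higher and 3 lower on Day 5. Over all genes tested, 7.52% were higher and 6.19% lower on Day 3, and 1.27% and 3.35% on Day 5. On Day 3 Hacd2, a dehydratase of fatty acid elongation, was higher in Il6-/- recipients (log2FC 0.33, FDR 0.027). Lipa, the lysosomal acid lipase, Lpin1 and Npc2 were lower (log2FC -0.57, -0.57 and -0.32, FDR 0.00066, 0.0037 and 0.042). On Day 5 Acat1, the mitochondrial acetoacetyl-CoA thiolase, was higher (log2FC 0.31, FDR 0.023). Mcat, an enzyme of mitochondrial fatty acid synthesis, and Rnf145, a ubiquitin ligase of the endoplasmic reticulum, were lower (log2FC -1.26 and -0.56, FDR 0.0025 and 0.0062).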

How the data were processed

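For 12 libraries of sorted OTII cells, the authors trimmed the single-end reads (Trim Galore, version 0.4.4), mapped them on GRCm39 (STAR, version 2.5.2a) and counted reads per gene without regard to strand (HTSeq, version 0.6.1p1). The deposited values used here were raw read counts per gene symbol; a CPM table of the series was not used. HTSeq summary lines were left out. Counts were fitted with edgeR (4.0.16, R 4.3.3): filterByExpr left 13570 genes, libraries were TMM-scaled (factors 0.944 to 1.06), and 4 group means were fitted to all 12 libraries with quasi-likelihood tests. A gene was called at FDR under 0.05, adjusted over all genes tested. SE was the absolute log2FC divided by the square root of F. CPM values are TMM-scaled, and CPM per kb uses the GENCODE canonical transcript.

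The members and lists were chosen with earlier results of these data known. Members called in a genotype comparison or at least 2-fold between days are given by library, and of other pathway genes up to 3 per direction with the smallest p, of which some are not reported here. Each group served in more than 1 comparison. Deviations from group means of same-numbered WT and Il6-/- libraries correlated within days (r 0.141, 0.107 and 0.126 on Day 3, 0.536, 0.346 and 0.193 on Day 5). For the replicate block, the numbers were therefore assumed to pair the libraries within a day. The pairing was inferred from these same counts, and its origin is not given in the sources used here. Its support was weak on Day 3, since same-numbered WT libraries of different days reached r 0.129. Calls made with the block depend on this assumption. Counts were simulated for the Day 3 genotype comparison (13233 genes, 50 changed at each fold size). Of the genes changed 2-fold 78% were recovered, and of those changed 1.5-fold 52%, with 4 false calls. The simulation used mean levels of all 12 libraries and the fitted trend of spread, with no shifts shared by the genes of a library. Recovery and false calls in the real comparison may therefore differ. No pair of replicates agreed within sampling noise. Alternatives were other scalings, other count filters, DESeq2 (1.42.0), a replicate block, fits to 2 groups, and leaving out each library.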

Additional observations from a re-analysis of the deposited data

Results flagged for a closer look

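Mcat, an enzyme of mitochondrial fatty acid synthesis from the list of other pathway genes, had a genotype effect that differed between the days, with a log2 difference, Day 3 minus Day 5, of 1.28 ± 0.27 (edgeR interaction term, FDR 0.015; called in all 19 alternatives, FDR at most 0.048). It was at 36.2, 31.5 and 25.4 CPM in WT and 33.9, 31.3 and 29.1 CPM in Il6-/- recipients on Day 3. On Day 5 it was at 35.5, 33.9 and 19.3 CPM in WT and at 11.96, 12.9 and 12.02 CPM in Il6-/- recipients, and the groups did not overlap. The exons of Mcat share 7.3% of their bases with Tspo, and the part of that overlap was not tested.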

How the results depend on the processing

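Day 5 against Day 3 was stable: every count of members that fell or rose stayed within 1.5 times under every alternative except members higher in WT, which were 5 under upper-quartile scaling; no called member reversed. Upper-quartile scaling moved the median of all genes by 0.196 in WT and 0.229 in Il6-/- recipients, and no scaling by 0.151 in Il6-/- recipients. Leaving out single libraries gave 27 to 29 members lower and 3 to 4 higher in WT, and 25 to 27 lower and 4 to 6 higher in Il6-/- recipients. The genotype comparisons depended on the processing, and the cause was not tested. On Day 3, members higher were 0 without scaling, 4 without a count filter, 3 in a fit to the 2 groups, 4 with the replicate block and 2 with DESeq2, and 0 to 2 with single libraries left out. Among all genes tested, 703 of 13570, 1079 of 25836, 1435 of 12289, 1477 of 13570 and 1216 of 13313 were higher in these settings. With libraries left out, 460 of 14029 to 1114 of 13958 were higher. Members lower on Day 3 were 2, 4, 3 and 2 without a filter, in 2 groups, with the replicate block and with DESeq2, and 0 to 2 with libraries left out. Among all genes, those lower were 983 of 25836, 1303 of 12289, 1181 of 13570 and 1000 of 13313. With libraries left out they were 482 of 14029 to 1082 of 14008. On Day 5, members higher were 10 without a filter, 0 in 2 groups, 11 with the replicate block, 4 with DESeq2 and 0 to 12 with libraries left out. Among all genes, those higher were 594 of 25836, 55 of 13016, 737 of 13570 and 467 of 11811. With libraries left out they were 44 of 13933 to 583 of 13958. Members lower on Day 5 were 1 with the replicate block (855 of 13570 genes) and 0 with any library left out. For the difference between days, members lower were 1 without scaling, 7 without a filter, 6 with the replicate block, 2 with DESeq2 and 0 to 5 with libraries left out, and members higher were 0. Among all genes, those lower were 420 of 13570, 579 of 25836, 717 of 13570 and 472 of 11310. With libraries left out they were 99 of 14029 to 356 of 13958. A block by replicate number in the day comparisons, where the numbers did not pair the libraries (r from -0.207 to 0.129), left 29 and 27 members lower and 3 and 5 higher, and the block changed no call other than those named. Counting depth limited Scd1, Nr1h3 and Abca1 on Day 3. When an arm is left with 2 libraries, they are assumed to vary like the other groups.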
